A study of Mus musculus with 3 samples.

Results

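The cells described here are the Xcr1-positive type 1 dendritic cells of mouse dorsal skin, 111 of the 16604 cells that passed quality limits in 3 single-cell RNA-seq libraries. They were chosen by measured values. A cell needed at least 1 UMI (unique molecular identifier, a counted RNA molecule) of Xcr1 and at least 1 UMI of 1 or more of Clec9a, Naaa, Cd24a, Irf8 and Wdfy4. It was left out with more than 2 UMIs of the complement genes C1qa, C1qb and C1qc together, which mark macrophages, or with any UMI of Ccr7, Epcam, Cd3e or Cd3d, which mark mature dendritic cells, epithelial or Langerhans cells and T cells. The study asked how melanocyte stem cells come to enter the epidermis after ultraviolet B (UVB) radiation. It profiled immune cells of skin to look for mediators and to see how raised prostaglandin synthesis changes the inflammatory response. Cells were enriched from digested skin with magnetic beads against CD45, the pan-leukocyte antigen, and the library of each group was made from male C57Bl/6 mice aged 8 weeks with hair follicles in telogen, the resting phase. WTctrl was wild-type skin without UVB. WTUV was wild-type skin exposed to UVB 3 times, every other day. RPUV was skin exposed in the same way in mice of the genotype RP, in which Rosa26-rtTA and a Tre-Ptgs2 transgene express rat Ptgs2 (Cox-2, the inducible enzyme of prostaglandin synthesis) throughout the body under doxycycline, given from the day before UVB, and this library came from 1 mouse.

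Type 1 conventional dendritic cells take up material from dying cells and present it on MHC class I to CD8 T cells, a process called cross-presentation. Their development depends on the transcription factors Irf8 and Batf3, and they carry Xcr1, the receptor for the chemokine Xcl1 that T and natural killer cells release, and Clec9a, which binds actin filaments laid open in dead cells. In skin they lie mainly in the dermis, many bear langerin (Cd207) and the integrin CD103 (Itgae), and after maturation they leave through the lymph by way of Ccr7.

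Each group was 1 library, so no difference below has a replicate check and none has a p-value. The 95% counting intervals given with shares, levels and ratios cover counting error only, not the spread between mice, and cells of a library are not replicates. The sample identifiers in the labels give WTctrl and RPUV 1 run code and WTUV another, and WTUV was sequenced more deeply, with a median of 10557 UMIs per kept cell against 4246 in WTctrl and 3774 in RPUV. The run and the group therefore cannot be told apart in any contrast with WTUV, and RPUV differed from WTctrl in both UVB and genotype. Between 8 and 11 barcodes were shared by each pair of libraries, and none of these was an Xcr1-positive cell.

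The Xcr1-positive cells made up a smaller share of the kept cells in both irradiated libraries than in WTctrl, and the smallest share in RPUV. There were 64 of 5309 kept cells in WTctrl, or 1.21% (exact binomial interval 0.930 to 1.54%). WTUV held 37 of 5225, or 0.708% (0.499 to 0.975%). RPUV held 10 of 6070, or 0.165% (0.0791 to 0.303%). The 3 intervals overlapped only between WTctrl and WTUV. The share in WTUV was 0.587 times that in WTctrl (0.393 to 0.879), the share in RPUV was 0.233 times that in WTUV (0.116 to 0.467), and the share in RPUV was 7.32-fold lower than in WTctrl (3.76 to 14.2). Of cells with a UMI of Ptprc, which encodes CD45, they were 63 of 2742 in WTctrl (2.30%), 36 of 4364 in WTUV (0.825%) and 9 of 2739 in RPUV (0.329%).

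The largest set of other dendritic cells also had lower shares in the irradiated libraries. The nearest relatives were taken as kept cells with Cd209a and at least 1 of Clec10a, Mgl2, Ccl17, Sirpa and Irf4, without Xcr1 and under the same limits on the other genes, and are called the Cd209a set. The genes of this set mark type 2 dendritic cells and those derived from monocytes. It held 547 cells in WTctrl (10.3% of kept cells), 355 in WTUV (6.79%) and 130 in RPUV (2.14%). A Ccr7 set of mature dendritic cells held 17, 28 and 3 cells, or 0.320%, 0.536% and 0.0494%, and its share in WTUV was 1.67 times that in WTctrl (0.917 to 3.05), not beyond counting error. Within these 3 dendritic sets together, Xcr1-positive cells were 10.2% in WTctrl (64 of 628, interval 7.94 to 12.8%), 8.81% in WTUV (37 of 420, 6.28 to 11.9%) and 6.99% in RPUV (10 of 143, 3.40 to 12.5%). These 3 shares had overlapping intervals, and the ratio of RPUV to WTctrl was 0.686 with an interval of 0.361 to 1.30, so a difference in the makeup of the dendritic cells was not detectable at this number of cells. Macrophages, taken as cells with at least 5 UMIs of the 3 C1q genes, were 35.1%, 42.0% and 40.1% of kept cells in WTctrl, WTUV and RPUV, and 47.0%, 46.6% and 65.0% of cells with a Ptprc UMI.

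**Figure D1:**
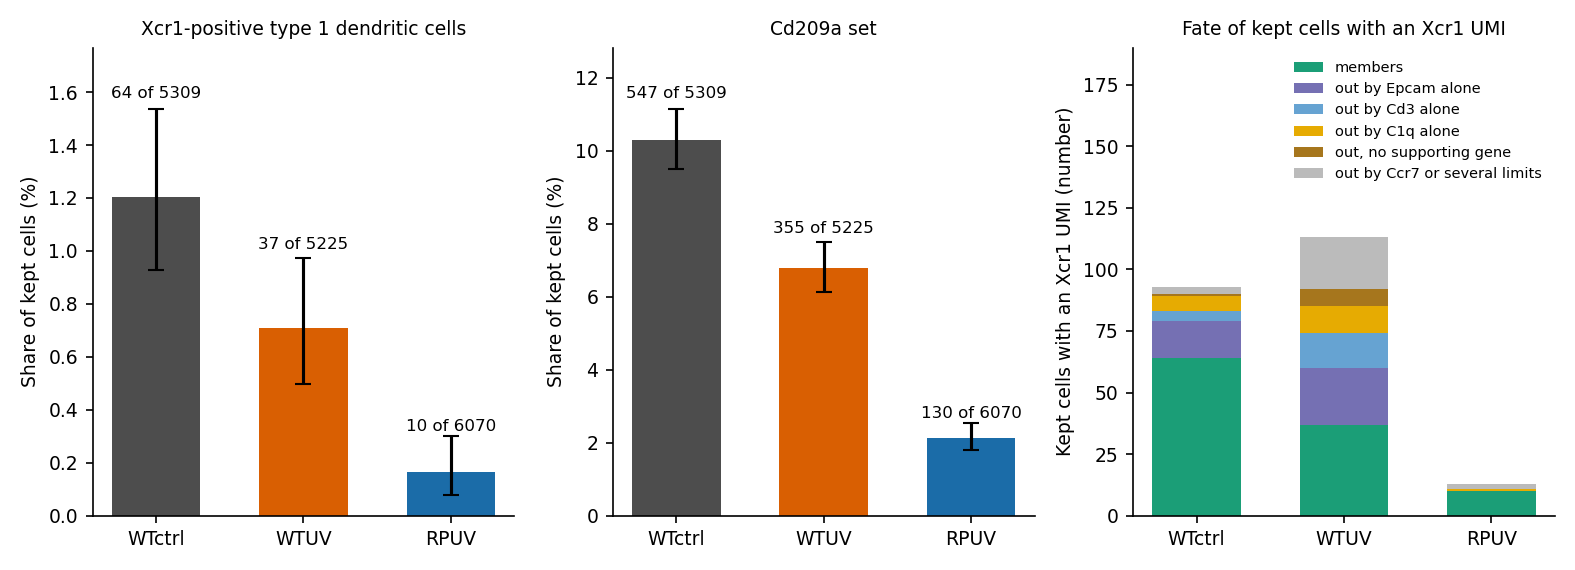
The bars give the share of kept cells, in percent with exact 95% binomial intervals, for Xcr1-positive cells and for the Cd209a set in WTctrl, WTUV and RPUV, and the stacked bars give the fate of every kept cell with an Xcr1 UMI under the rule. The Xcr1-positive share is 1.21%, 0.708% and 0.165%, and 64 of 93, 37 of 113 and 10 of 13 cells with an Xcr1 UMI met the rule.

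The limits that define the cells did not act alike in the 3 libraries. An Xcr1 UMI was found in 93 kept cells of WTctrl, 113 of WTUV and 13 of RPUV, of which 29, 76 and 3 were left out. The commonest single reason was an Epcam UMI alone, in 15 cells of WTctrl, 23 of WTUV and none of RPUV. These cells met every other limit. Their median Xcr1 count was 5 UMIs in WTctrl and 11 in WTUV, above the medians of 4.5 and 4 in the cells kept in, Irf8 was found in 15 of 15 and 22 of 23, and their median Epcam count was 2 UMIs. Counting them as members gave 79 cells in WTctrl, 60 in WTUV and 10 in RPUV, and the ratio of WTUV to WTctrl became 0.772 with an interval of 0.553 to 1.08, which includes 1. Each cell was also thinned to 2000 UMIs at random, so that all libraries had 1 depth. The rule was then applied anew to the thinned counts. Members could thus drop out, and cells left out before could enter once an excluding UMI was lost. This gave 50, 36 and 2 members and a ratio of WTUV to WTctrl of 0.660 (0.431 to 1.01). With thinning to 1000 UMIs it was 0.780 (0.442 to 1.38). The lower share in WTUV than in WTctrl was therefore not beyond counting error under these 3 settings, while without the Epcam limit and with thinning to 2000 UMIs together the ratio was 0.617 (0.408 to 0.934). The share in RPUV was below that in WTctrl, with an interval that excluded 1, in every alternative tried for the share of kept cells or of cells with a Ptprc UMI. For the share within the 3 dendritic sets, given above, the interval included 1.

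Cells near the limits were described without a test. The Xcr1 count of the members ran from 1 to 16 UMIs in WTctrl, 1 to 30 in WTUV and 1 to 4 in RPUV, and 10, 8 and 5 members had a single UMI. All 5 supporting genes were found in 32, 23 and 3 members. Irf8 was missing from 6 members in WTctrl, 5 of them with a Cd209a UMI, and from 2 in WTUV, and every RPUV member had Irf8. Each of the members without Irf8 had a single Xcr1 UMI. In WTUV, 1 of the 2 also had no H2-Aa UMI, 1 Cd74 UMI and 1 supporting gene. The name type 1 dendritic cell is therefore not secured for every member. In keratinocytes, which should lack Xcr1, a UMI was found in 1 of 926 cells in WTctrl, 2 of 312 in WTUV and 0 of 851 in RPUV, which allows a share of up to 0.353%. The T cells with an Xcr1 UMI numbered 1 of 246 in WTctrl, 4 of 329 in WTUV (1.22%) and 0 of 21 in RPUV. The medians were 6325.5, 15284.5 and 7628 UMIs in those keratinocytes, 2480.5, 5355 and 1951 in the T cells and 8212, 20797 and 7430.5 in the members. Levels below are UMIs of a gene summed over the members of a library, per 1000000 of their summed UMIs (CPM), out of 555010 UMIs in WTctrl, 815416 in WTUV and 73921 in RPUV. In RPUV a single UMI is therefore worth 13.5 CPM, and a count of 0 allows up to 40.6 CPM, taking 3 counts as the limit. Gene values given below for cells thinned to 1000 UMIs come from a single random draw. They rest on 27, 21 and 5 members in WTctrl, WTUV and RPUV, so a few UMIs can move them.

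The genes used to choose the cells had levels that the choice itself shapes. Xcr1 stood at 580 CPM in WTctrl, 388 in WTUV and 271 in RPUV. Irf8 stood at 2072, 1987 and 1786 CPM against 42.6, 80.9 and 7.48 CPM in the Cd209a set. Naaa, a lysosomal hydrolase of lipid amides, stood at 1926, 1743 and 1515 CPM, and Clec9a at 141, 62.5 and 108 CPM.

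Marker genes of type 1 dendritic cells that the rule did not use were found in each library. Of a list of 20 such genes, every one had UMIs in WTctrl and WTUV and 19 had UMIs in RPUV, where Snx22 was at 0. The list summed to 25398 CPM in WTctrl, 24465 in WTUV and 26704 in RPUV, against 4699, 4270 and 5559 CPM in the Cd209a set, with Cst3 (the protease inhibitor cystatin C) the largest part of it at 21756, 20916 and 23985 CPM. Batf3, the partner of Irf8 in this lineage, stood at 150 CPM (Poisson interval 119 to 185) in WTctrl, 152 (126 to 181) in WTUV and 257 (155 to 401) in RPUV, and its 3 intervals overlapped. Gcsam, a signalling adaptor, was found at 57.7, 56.4 and 67.6 CPM in the members and at 0, 0.189 and 0 CPM in the Cd209a set. The RNA sensor Tlr3 stood at 66.7, 51.5 and 40.6 CPM and Tlr11, a sensor of profilin, at 59.5, 52.7 and 40.6 CPM.

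By a rule that ranked genes on the smallest lower bound of the fold of members over the Cd209a set in WTctrl and WTUV, the 15 leading genes were Xcr1, Gcsam, Ifi205, Clec9a, Cd207, Snx22, Irf8, Ttc39a, Itgae, Rasgrp3, Dbn1, Plpp1, Kit, Tlr3 and Zdhhc2. Xcr1, Clec9a and Irf8 among them had been used to choose the cells. Kit, the receptor for stem cell factor, stood at 64.9 CPM in WTctrl, 65.0 in WTUV and 81.2 in RPUV, against 1.49, 2.83 and 1.25 CPM in the Cd209a set. This level did not differ between the 3 libraries beyond counting error.

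Several identity genes differed between libraries while remaining well above the Cd209a set. Itgae, the alpha chain of CD103, which binds E-cadherin on epithelial cells, stood at 64.9 CPM (interval 45.4 to 89.8) in WTctrl, 188 (159 to 220) in WTUV and 149 (74.3 to 266) in RPUV, and was found in 15 of 64, 30 of 37 and 4 of 10 members. It was 2.89-fold higher in WTUV than in WTctrl (2.001 to 4.28), and 1.79, 6.03 and 4.99 CPM in the Cd209a set. The cell adhesion molecule Cadm1 went the other way, from 234 CPM in WTctrl to 89.5 in WTUV and 149 in RPUV, 2.62-fold lower in WTUV than in WTctrl (1.95 to 3.53), a difference that was lost when cells were thinned to 1000 UMIs (0.041 on the log2 scale). Cd207, langerin, a lectin of Langerhans cells and of many dermal type 1 cells, stood at 699, 354 and 365 CPM and was found in 43, 23 and 6 members. Its level was 1.97-fold lower in WTUV than in WTctrl (1.69 to 2.30) and 1.91-fold lower in RPUV (1.30 to 2.94). Of the cells left out by an Epcam UMI alone, 15 of 15 in WTctrl and 19 of 23 in WTUV had Cd207. The Epcam limit therefore bears on this contrast. Ifi205, an interferon-inducible gene of this lineage, stood at 218, 388 and 365 CPM and was 1.78-fold higher in WTUV than in WTctrl (1.44 to 2.21). Id2, a transcriptional inhibitor needed for the lineage, stood at 831, 938 and 446 CPM and was 1.86-fold lower in RPUV than in WTctrl (1.31 to 2.74).

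**Figure D2:**
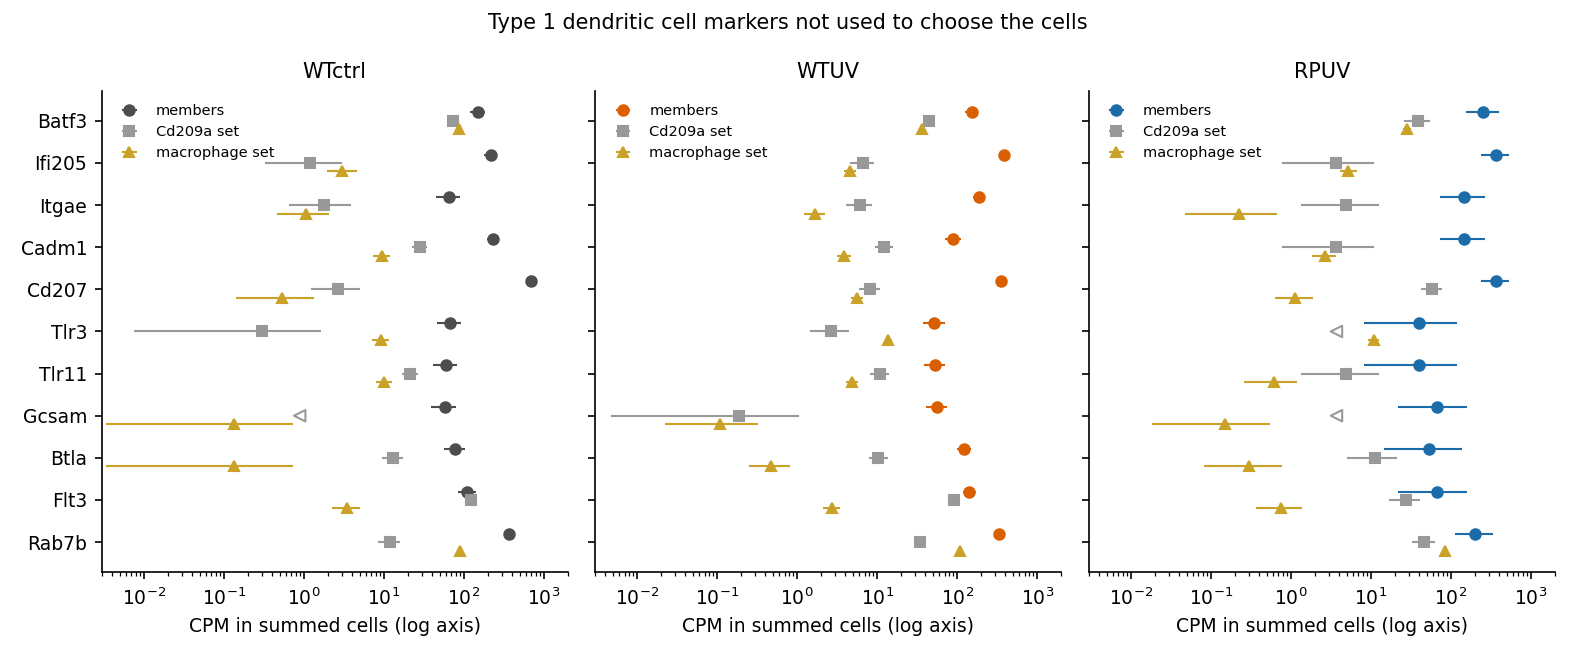
Levels in CPM on a log axis of 11 type 1 dendritic genes that the rule did not use, in the Xcr1-positive cells, the Cd209a set and the macrophages of each library, with exact 95% Poisson intervals as bars and open left-pointing triangles at the limit that 0 UMIs allows. The members lie above the Cd209a set for each gene in each library, except Flt3 in WTctrl (110 against 125 CPM), the growth factor receptor that all conventional dendritic cells share.

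Markers of other cells were not absent. A list of 10 type 2 dendritic genes summed to 1054, 506 and 311 CPM in the members of WTctrl, WTUV and RPUV, against 4902, 4870 and 4766 CPM in the Cd209a set. A list of 10 macrophage genes summed to 2796, 1194 and 2056 CPM in the members, against 35469, 24743 and 33784 CPM in macrophages. Every member had UMIs of it, and Lyz2 was its largest part at 2560, 991 and 1799 CPM. In WTUV, 313 of 418 keratinocyte UMIs and 263 of 301 neutrophil UMIs each came from a single member. In RPUV, 96 of 97 fibroblast UMIs came from a single member. Several results below that rest on single cells give the UMIs of that cell or the level without it. Doublets were not removed, and the doublet caller tried marked 1.39% of cells in WTctrl, 0.0191% in WTUV and 0.0165% in RPUV, too few to be of use.

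Ptgs2, the gene of the transgene, separated RPUV from the wild-type libraries in every member cell. No Ptgs2 UMI was found in the 64 members of WTctrl, which allows up to 5.41 CPM, or in the 37 members of WTUV, which allows up to 3.68 CPM. In RPUV all 10 members had Ptgs2, with 6, 6, 8, 9, 13, 19, 24, 25, 31 and 34 UMIs in the single cells. The sum of 175 UMIs gave 2367 CPM (2030 to 2745), at least 438-fold higher than in WTctrl and at least 643-fold higher than in WTUV. How far reads of the rat transgene count as mouse Ptgs2 is not known, so the value is a level of reads assigned to Ptgs2 and not of the mouse gene alone.

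The Xcr1-positive cells had the highest Ptgs2 level of the sets compared in RPUV and the lowest in WTUV. In RPUV, Ptgs2 stood at 414 CPM in the Cd209a set, 216 in macrophages, 571 in keratinocytes and 1042 in the 21 T cells. The members were 5.72-fold above the Cd209a set (4.73 to 6.89), 10.9-fold above macrophages (9.33 to 12.7), 4.15-fold above keratinocytes (3.54 to 4.82) and 2.27-fold above T cells (1.66 to 3.16). The T cell level rested on 52 UMIs in 6 cells, with 28 in the highest cell. These T cells also held 296 UMIs of the neutrophil list, in 5 cells. Neutrophils were not among the sets compared. With each cell thinned to 2000 UMIs, Ptgs2 was found in 9 of 10 members (90.0%, interval 55.5 to 99.7%), 31.0% of the Cd209a set, 18.9% of macrophages, 43.0% of keratinocytes and 4 of 10 T cells. In WTUV the order differed. Ptgs2 stood at 85.2 CPM in the Cd209a set and 88.4 in macrophages, so that the members, at 0 UMIs, were at least 23.2-fold lower than the Cd209a set and at least 24.0-fold lower than macrophages. Keratinocytes of WTUV stood at 6.28 CPM and T cells at 14.2 CPM, at least 1.71-fold and 3.87-fold above the members. The Cd209a set of WTctrl stood at 26.8 CPM, at least 4.96-fold above the members.

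**Figure D3:**
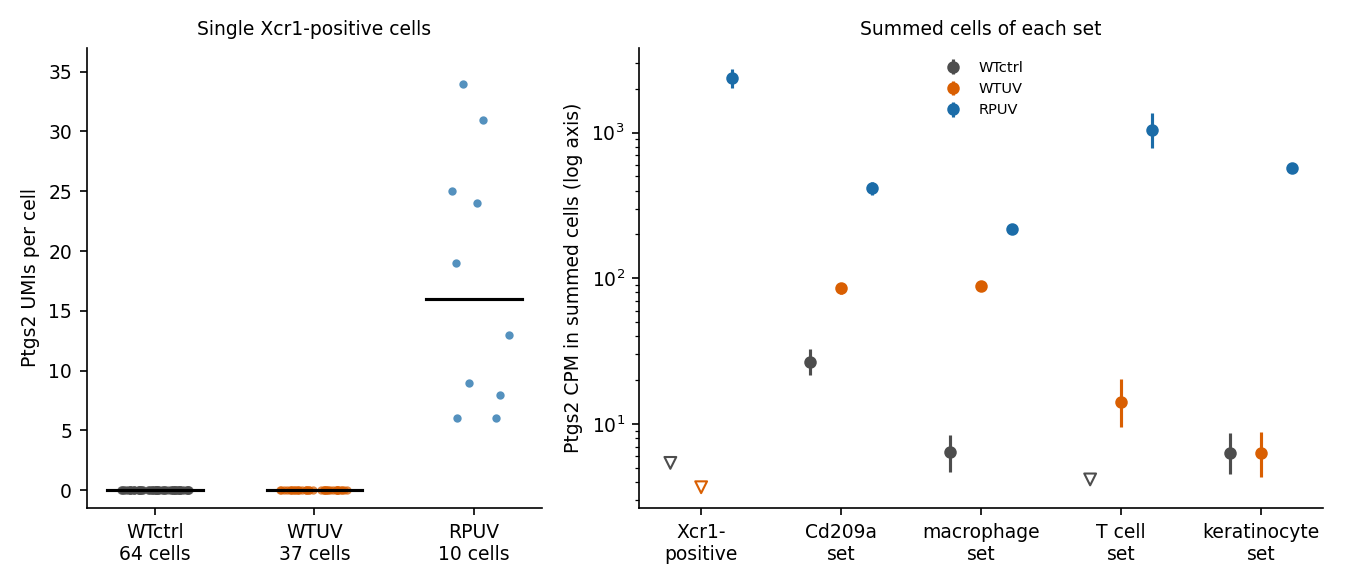
Ptgs2 UMIs in each Xcr1-positive cell, with the median as a line, and Ptgs2 levels in CPM in each set of cells by library, with exact 95% Poisson intervals as bars and open triangles at the limit that 0 UMIs allows. The 10 RPUV cells lie between 6 and 34 UMIs while the 101 wild-type cells lie at 0.

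Receptors and other enzymes of the prostaglandin pathway were scarce in the members. Ptger4, the EP4 receptor for prostaglandin E2, stood at 12.6 CPM in WTctrl, 23.3 in WTUV and 13.5 in RPUV, from 7, 19 and 1 UMIs. Ptger2, the EP2 receptor, had 0, 6 and 1 UMIs. Neither differed between libraries beyond counting error. Ptges3, a cochaperone with prostaglandin E synthase activity, was the only other of the 18 listed genes of this pathway above 100 CPM in a library, at 153, 190 and 216 CPM. The nuclear receptors Nr4a1, Nr4a2 and Nr4a3, which are immediate early genes induced by cAMP, had 3, 0 and 0 UMIs in the 10 RPUV members. A list of 13 cAMP-responsive genes summed to 665, 429 and 785 CPM in WTctrl, WTUV and RPUV. In RPUV 33 of its 58 UMIs came from 1 cell. Without the highest cell of each library the sums were 593, 278 and 406 CPM.

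Cell cycle genes were higher in the RPUV members than in those of WTctrl. A list of 16 such genes made up a median of 0.215% of the UMIs of a cell in WTctrl (lowest 0.0276%, highest 1.93%), 0.383% in WTUV (0.0481 to 1.72%) and 1.60% in RPUV (0.143 to 1.87%). The RPUV range lay within that of WTctrl, and the RPUV median lay close to the highest cells of the other 2 libraries. In the Cd209a set the medians were 0.155%, 0.187% and 0.318%, and in macrophages 0.0716%, 0.0867% and 0.0758%. Without H2afz and Hmgb2, chromatin proteins that resting cells also express, the medians of the members were 0.0140%, 0.0208% and 0.553%.

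Single genes of the list were higher in RPUV as well. Mki67, the Ki-67 antigen of cycling cells, stood at 265 CPM in WTctrl, 159 in WTUV and 595 in RPUV, and was found in 14 of 64, 18 of 37 and 8 of 10 members. It was 2.25-fold higher in RPUV than in WTctrl (1.57 to 3.17) and 1.66-fold lower in WTUV than in WTctrl (1.30 to 2.12), the latter turning to 0.95 higher on the log2 scale with cells thinned to 1000 UMIs. Top2a, the topoisomerase that untangles replicated DNA, stood at 223, 220 and 541 CPM, 2.42-fold higher in RPUV than in WTctrl (1.65 to 3.48). Stmn1, a microtubule regulator, stood at 348, 320 and 1258 CPM, 3.62-fold higher in RPUV (2.79 to 4.66). Pclaf, a PCNA-binding factor of replicating cells, stood at 114, 228 and 649 CPM, 5.72-fold higher in RPUV (3.85 to 8.46). With cells thinned to 1000 UMIs the difference was 0.11 on the log2 scale, from 27 WTctrl and 5 RPUV members. After thinning to 2000 UMIs, Stmn1 was found in 18.8% of WTctrl members (10.1 to 30.5%), 32.4% of WTUV members (18.0 to 49.8%) and 80.0% of RPUV members (44.4 to 97.5%). The intervals of WTctrl and RPUV did not overlap. In WTUV the 15 members with 4000 genes or more, a range that the upper gene limit closed in the other libraries, had a median of 0.538% of their UMIs in the list, against 0.323% in the other 22. Cdkn1a, the cell cycle inhibitor p21, was also higher in RPUV, at 325 CPM against 166 in WTctrl and 152 in WTUV, 1.96-fold over WTctrl (1.19 to 3.10).

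**Figure D4:**
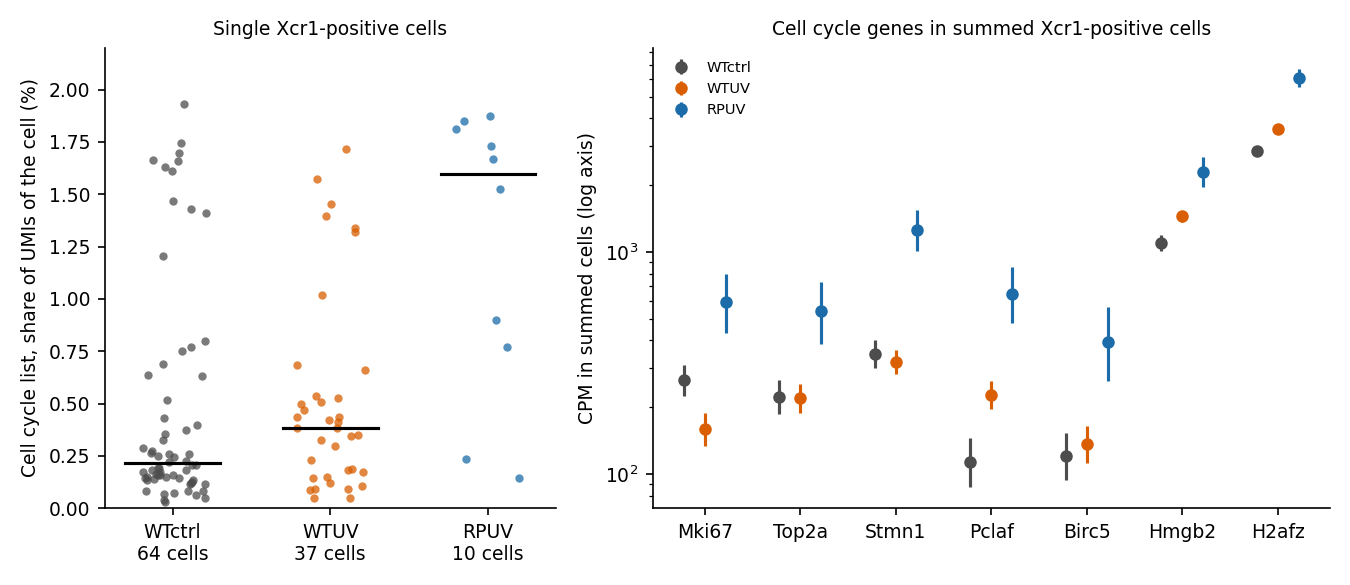
The share of the UMIs of each Xcr1-positive cell that fell in the 16 cell cycle genes, in percent with the median as a line, and the levels in CPM of 7 of these genes by library, with exact 95% Poisson intervals as bars on a log axis. The medians are 0.215% in WTctrl, 0.383% in WTUV and 1.60% in RPUV, with overlapping ranges.

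Antigen presentation genes remained high in all 3 libraries. The list of 12 MHC class II genes summed to 65397 CPM in WTctrl, 52051 in WTUV and 53828 in RPUV. H2-Aa, a class II alpha chain, stood at 11958, 9002 and 8441 CPM, 1.33-fold lower in WTUV than in WTctrl (1.28 to 1.37) and 1.42-fold lower in RPUV (1.30 to 1.54). In macrophages of the same libraries it stood at 7500, 3963 and 1004 CPM. The invariant chain Cd74 stood at 25650, 19807 and 21442 CPM in the members and at 15288, 9362 and 2485 CPM in macrophages. Ciita, which drives class II transcription, stood at 211, 211 and 149 CPM and did not differ beyond counting error.

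For MHC class I, the chains themselves were lower in WTUV than in WTctrl. B2m, the light chain, stood at 1375 CPM in WTctrl, 546 in WTUV and 1123 in RPUV, 2.52-fold lower in WTUV than in WTctrl (2.24 to 2.84). The heavy chain H2-K1 stood at 750, 313 and 514 CPM, 2.40-fold lower in WTUV (2.05 to 2.81), and H2-D1 at 1708, 947 and 1475 CPM, 1.80-fold lower (1.64 to 1.99). In the Cd209a set, B2m stood at 1709, 1222 and 1054 CPM. Of the genes that supply peptides, the immunoproteasome subunit Psmb8 stood at 1103, 1142 and 1042 CPM and did not differ beyond counting error. The peptide transporter subunit Tap1 stood at 213, 173 and 298 CPM, 1.72-fold higher in RPUV than in WTUV (1.05 to 2.71). Among receptors for dying cells and their lipids, Cd36 stood at 115, 57.6 and 135 CPM and Clec12a, an inhibitory lectin that binds uric acid crystals, at 144, 61.3 and 122 CPM. Both were lower in WTUV than in WTctrl, by 2.0-fold (1.35 to 2.98) and 2.35-fold (1.63 to 3.42).

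Receptors that guide cells into and within tissue differed between libraries, and Ccr2 was lower in both irradiated ones. Ccr2, the receptor that brings precursors from blood into inflamed tissue, stood at 485 CPM in WTctrl, 205 in WTUV and 94.7 in RPUV, and was found in 52 of 64, 19 of 37 and 5 of 10 members. It was 2.37-fold lower in WTUV than in WTctrl (1.94 to 2.89) and 5.12-fold lower in RPUV (2.45 to 12.9, from 7 UMIs). The WTUV difference was smaller, -0.54 on the log2 scale against -1.24, when every cell was given equal weight as a mean of single-cell CPM. In the Cd209a set it stood at 439, 629 and 239 CPM, higher in WTUV than in WTctrl. Itga4, an integrin subunit that binds VCAM-1, stood at 106, 41.7 and 162 CPM, 2.55-fold lower in WTUV than in WTctrl (1.64 to 4.01). Cxcr3, a receptor for interferon-induced chemokines, stood at 88.3, 42.9 and 27.1 CPM against 2.98, 2.64 and 0 CPM in the Cd209a set. Gpr183, an oxysterol receptor that positions dendritic cells, stood at 46.8, 94.4 and 81.2 CPM, 2.02-fold higher in WTUV (1.28 to 3.28).

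Inflammatory genes of the innate response stood lower in the members than in the Cd209a set. Il1b, interleukin 1 beta, stood at 189, 235 and 162 CPM in WTctrl, WTUV and RPUV, against 1589, 1440 and 4360 CPM in the Cd209a set. These levels of the members rested on few cells. The highest cell of WTctrl held 49 UMIs, and the highest cells of WTUV held 46, 45, 45 and 37. That WTctrl cell had no Irf8 UMI and 22 UMIs of Cd209a. Of the WTUV cells, 1 with 45 had no Irf8 UMI and 21 of Cd209a, while the others held 34, 82 and 65 Irf8 UMIs. In RPUV 1 cell held 11 UMIs and the only other cell with Il1b held 1. Cxcl2, a chemokine for neutrophils, stood at 3.60, 131 and 13.5 CPM. In WTUV 102 of its 107 UMIs came from 1 cell, the same WTUV cell without Irf8, and the level without it was 6.35 CPM. In the Cd209a set Cxcl2 stood at 35.4, 491 and 2289 CPM. Ccl2 in RPUV was likewise carried by 1 cell, with 36 of 38 UMIs, and its level was 514 CPM with that cell and 32.5 without it. Of the costimulatory genes, Cd86 stood at 178, 183 and 162 CPM and did not differ beyond counting error. Il12b had no UMI in any library, which allows up to 5.41, 3.68 and 40.6 CPM.

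A list of 19 genes that interferons induce summed to 1133 CPM (1046 to 1225) in WTctrl and 513 (465 to 564) in WTUV. In RPUV it summed to 1650 CPM (1371 to 1971). Single genes differed in both directions between WTUV and WTctrl, with Ly6e and Irf1 lower and Ifi205, Ifitm1 and Ifitm2 higher. Ifitm1 and Ifitm2 were not on the list. Ly6e stood at 658 CPM in WTctrl, 310 in WTUV and 893 in RPUV, 2.12-fold lower in WTUV than in WTctrl (1.80 to 2.50) and 1.36-fold higher in RPUV (1.03 to 1.77). The WTUV value turned to 0.25 higher on the log2 scale with cells thinned to 1000 UMIs. The transcription factor Irf1 stood at 57.7, 7.36 and 13.5 CPM, 7.84-fold lower in WTUV than in WTctrl (3.23 to 22.9). Cxcl9, an interferon-induced chemokine for T cells, stood at 277, 35.6 and 176 CPM, with 94 of 154 UMIs in 1 cell of WTctrl. In RPUV 1 cell held all 13 UMIs. Without the highest cell of each library Cxcl9 stood at 110 CPM in WTctrl, 14.0 in WTUV and 0 in RPUV.

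Across all genes, WTUV could be set against WTctrl, while the 10 RPUV cells were too few for such a comparison, which needed 20 members in both libraries. Genes with a mean of at least 100 CPM were compared, and a gene was called when its CPM plus a pseudocount of 10 differed 2-fold or more. Of 1190 genes, 25 were called higher in WTUV (2.10%) and 30 lower (2.52%), and the median log2 fold was 0.03. Against this background, of the 11 type 1 dendritic genes not used by the rule that were compared, 1 was called higher (Itgae) and 1 lower (Cadm1), with a median log2 fold of 0.02. Of 12 genes for MHC class I and cross-presentation, 2 were called lower (B2m and H2-K1), with a median of -0.01, which became -0.83 with cells thinned to 1000 UMIs. With the upper limit of 4000 genes applied to WTUV as to the other libraries, neither was called, at -0.83 for B2m and -0.84 for H2-K1. None of 10 MHC class II genes was called, with a median of -0.30. Of 9 cell cycle genes none was called, with a median of 0.16, which became -1.22 with that limit, -0.19 with no C1q UMI allowed and -0.25 with no limit on Epcam.

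The called genes that ranked highest by the lower bound of the fold included Ifitm1, S100a9, Ifitm2, Lgals7, Hist1h2ap, S100a6, S100a11, Ndufb1-ps and Wfdc17. Ifitm2, a membrane protein that restricts virus entry, stood at 64.9 CPM in WTctrl, 793 in WTUV and 433 in RPUV, 12.2-fold higher in WTUV (8.74 to 17.6), and was found in 16 of 64 and 26 of 37 members. Its relative Ifitm1 had 1 UMI in WTctrl and 362 UMIs in 13 cells of WTUV, 142 of them in 1 cell, a ratio of 246 (43.9 to 9759), and none in RPUV. Reads of these similar genes may be split between them. S100a6 and S100a11, calcium-binding proteins, stood at 1683, 4080 and 2056 CPM and at 1829, 4264 and 3017 CPM. They were 2.42-fold and 2.33-fold higher in WTUV than in WTctrl.

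Some of these differences lay in 1 cell, and others were also found in the Cd209a set. All 202 UMIs of S100a9, a neutrophil protein, came from 1 WTUV member, and so did 107 of 144 UMIs of Lgals7, a keratinocyte galectin, and 197 of 474 of the histone gene Hist1h2ap. Leaving out the cell with the most UMIs of each gene kept 20 of the 25 higher calls and 30 of the 30 lower calls, and Lgals7, Mrpl52, Rpl41, S100a9 and Wfdc17 were no longer called. Ndufb1-ps, annotated as a pseudogene of a respiratory chain subunit, stood at 198, 518 and 176 CPM in the members of WTctrl, WTUV and RPUV. In the Cd209a set it stood at 202, 517 and 264 CPM. The values were 185, 410 and 213 CPM in macrophages and 178, 385 and 231 CPM in keratinocytes. S100a6 stood at 2849, 5083 and 4302 CPM in the Cd209a set. The part of the sequencing run in these values was not tested.

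The called genes that ranked lowest were Cxcl9, Lyz1, Ear2, Atf3, Plaat3, Dusp1, Lyz2, Npc2, Fos and B2m. The lysozymes Lyz1 and Lyz2 stood at 218, 28.2 and 13.5 CPM and at 2560, 991 and 1799 CPM, and near-identical reads may be split between them. With cells thinned to 1000 UMIs, Lyz2 and Npc2 were closer between WTUV and WTctrl, at -0.34 and -0.69 on the log2 scale against -1.37 and -1.42. Npc2, a lysosomal cholesterol carrier, stood at 1050, 394 and 514 CPM, and was found in 64 of 64 WTctrl members and 35 of 37 WTUV members. Plaat3, a phospholipase of organelle membranes, stood at 187, 54.0 and 216 CPM. Of the irradiated libraries, only WTUV lay below WTctrl for this gene. Ear2, a ribonuclease of eosinophils and some monocyte-derived cells, stood at 177, 38.0 and 13.5 CPM but was found in 9, 7 and 1 members.

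**Figure D5:**
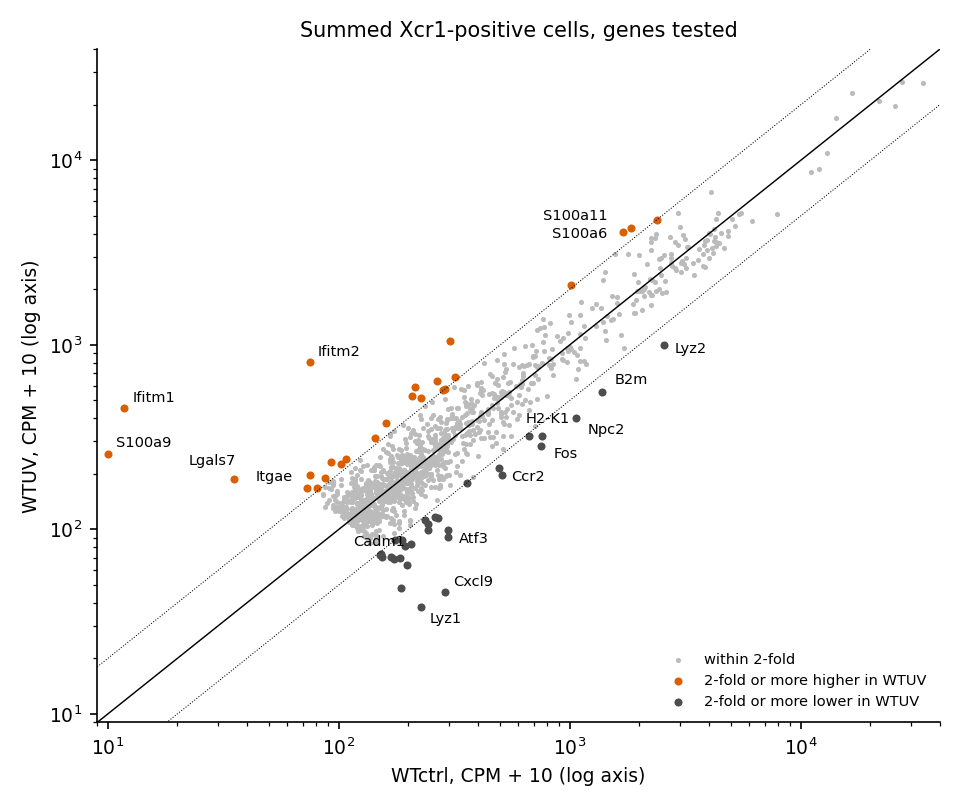
Levels of the 1190 genes compared in the summed Xcr1-positive cells, as CPM plus 10 on log axes, WTctrl on the horizontal and WTUV on the vertical axis, with the line of equality and dotted lines at 2-fold. The 25 genes called higher and the 30 called lower in WTUV are coloured.

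Of the immediate early and stress genes that tissue digestion can induce, Fos and Atf3 were lower in WTUV than in WTctrl. Fos stood at 742 CPM in WTctrl, 275 in WTUV and 338 in RPUV, 2.70-fold lower in WTUV (2.29 to 3.19) and 2.19-fold lower in RPUV (1.47 to 3.43) than in WTctrl. Atf3 stood at 288, 80.9 and 40.6 CPM, 3.56-fold lower in WTUV (2.66 to 4.82) and 7.10-fold lower in RPUV (2.39 to 34.8, from 3 UMIs). Of 12 genes of this list compared, these 2 were called, and the list median was -0.50 on the log2 scale. With cells thinned to 1000 UMIs the median was -0.013, Fos stood at -0.40 and Atf3 at -0.64, and with no limit on Epcam the median was -0.11. In the Cd209a set Fos stood at 2690, 1986 and 1951 CPM. Glycolysis genes lay on the other side. Gapdh stood at 757, 1378 and 866 CPM, 1.82-fold higher in WTUV than in WTctrl (1.63 to 2.04), or 0.26 on the log2 scale with cells thinned to 1000 UMIs. Ldha, lactate dehydrogenase, stood at 330, 568 and 514 CPM, 1.72-fold higher in WTUV (1.45 to 2.05) and 1.56-fold higher in RPUV (1.07 to 2.22). None of the 7 genes of the glycolysis and hypoxia list was called, and its median was 0.46. In the Cd209a set Gapdh stood at 678, 1047 and 861 CPM.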

How the data were processed

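The deposited tables held raw counts of UMIs for each gene in each barcode (Cell Ranger 6.1.1 per the file headers, build mm10 per the submitters' processing notes), 5977, 6149 and 7240 barcodes for WTctrl, WTUV and RPUV. Cells were kept with under 10% mitochondrial UMIs and more than 200 and under 4000 genes (under 6000 in WTUV). Members were then chosen as described above, and their UMIs summed per library. Members and gene lists were chosen with earlier results of these data known. Intervals were exact binomial for shares, exact Poisson for CPM and conditional binomial for folds, at 95%, and a log-ratio interval for ratios of shares. Named genes were those of the lists with at least 10 summed UMIs, the 10 with the highest lower and the 10 with the lowest upper bound of the fold, leaving out mitochondrial and ribosomal protein genes, unnamed models, Y-linked genes, Xist and genes of the rule, and the 15 leading genes. Called genes named outside the ranks were chosen after their values were seen. Some genes that the rule names are not reported here. Doublets were not removed. Python 3.11.15, scipy 1.17.1 and scanpy 1.11.5 were used. Of the steps, the calling of genes past 2-fold was tested on simulated sums with known folds.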

Additional observations from a re-analysis of the deposited data

How the results depend on the processing

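The share ratios kept their direction under the 15 alternatives to each. WTUV over WTctrl ranged from 0.359 to 0.780, RPUV over WTUV from 0.0601 to 0.398 and RPUV over WTctrl from 0.0371 to 0.169. The values that moved were 0.0617 and 0.0408 for RPUV over WTUV and over WTctrl with cells thinned to 2000 UMIs, 0.0601 and 0.0371 with thinning and no limit on Epcam, 0.0700 for RPUV over WTctrl with no C1q UMI allowed, and 0.359 for WTUV over WTctrl among cells with a Ptprc UMI. Counts of genes past 2-fold, higher and lower, were 181 and 161 with cells thinned to 1000 UMIs, 49 and 53 with a filter at 50 CPM, 16 and 9 at 200 CPM and 159 and 197 with no filter, and 14 were lower without the Epcam limit. Ptgs2 in RPUV was 3400.0 CPM thinned, 2932 with at least 2 Xcr1 UMIs and 2919.7 with mitochondrial and ribosomal genes left out of the total. Gene folds that reversed, on the log2 scale, were Hist1h2ap at -1.02 and Pclaf at -0.48 with the limit of 4000 genes in WTUV, and Cadm1 at 0.041, Id2 at -0.085, Lgals7 at -0.64, Ly6e at 0.25 and Mki67 at 0.95 thinned to 1000 UMIs. The cause was not tested. These settings leave fewer UMIs and cells, and thinning also changes which cells are members. Of 514 gene values, 395 moved by less than counting error and 112 by more without reversing. The alternatives without the Epcam limit, with Irf8 required and without the top cell were chosen after seeing the data. No paired analysis was possible because each group had 1 library. Depth limits RPUV most, where 10 cells and 73921 UMIs leave genes under 40.6 CPM unmeasured.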
